A study of Mus musculus with 8 samples.

Results

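Kruppel-like factors are a family of zinc finger transcription factors, and 8 of their genes, of 55414 in the deposited count table, are described here in macrophages of mouse skin wounds 1 and 3 days after injury. The genes were Klf2, Klf3, Klf4, Klf6, Klf7, Klf9, Klf10 and Klf13. They were selected by family name, on a comparison of these same libraries in which Klf4 and Klf6 were higher at day 3. The difference between the days in the 8 genes is therefore a description, and no p-value is given for it.

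RNA was sequenced from 3 pools of wound macrophages taken at day 1 (libraries a to c) and 5 pools taken at day 3 (libraries a to e), and the design sets one day against the other. Every pool came from 6 wounds of 3 mice, whose tissue was digested with collagenases before the cells were captured on magnetic beads by F4/80, a macrophage surface protein. No uninjured skin, treatment or engineered allele enters the comparison. Strain, age and sex, and whether pools shared mice, are not stated in the labels, so the spread given is that between pools and may be partly technical.

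The zinc fingers of the family lie at the C-terminal end of the protein and bind GC-rich and CACCC-type elements, while the N-terminal parts differ and recruit coactivators or corepressors such as CtBP and Sin3A. In the myeloid lineage, Klf4 is needed for inflammatory monocytes and takes part in alternative activation of macrophages, Klf2 restrains activation of circulating myeloid cells, and Klf6 is an early response gene linked to inflammatory gene expression in macrophages. Several of these genes respond within minutes to serum, shear stress, hormones or cell dissociation.

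Upstream sequence is shown for the 3 genes on which the results turn: Klf4 and Klf6, which were higher at day 3 in every library, and Klf2, whose direction rested on 1 library. Each run holds the 250 bases before the RefSeq start of the gene in GRCm38.p6, 5′ to 3′ on the gene's own strand. Capitals mark matches, on either strand, to the letters GGGCGG (the GC box of Sp and Kruppel-like factors), CACCC (the classical element of the family), CCAAT (the box of NF-Y), TATAA (the TATA element) and CACGTG (the E-box), and to the MEF2 motif. Touching or overlapping matches merge into 1 run of capitals. The windows are chr8:72318812-72319061 (+ strand) for Klf2, chr4:55532476-55532725 (- strand) for Klf4 and chr13:5861239-5861488 (+ strand) for Klf6.
Klf2: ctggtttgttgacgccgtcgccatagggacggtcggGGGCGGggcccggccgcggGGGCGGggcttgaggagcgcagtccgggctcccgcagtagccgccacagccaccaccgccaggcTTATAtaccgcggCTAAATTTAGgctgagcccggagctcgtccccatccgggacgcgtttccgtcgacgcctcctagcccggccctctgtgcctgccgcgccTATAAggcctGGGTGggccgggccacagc
Klf4: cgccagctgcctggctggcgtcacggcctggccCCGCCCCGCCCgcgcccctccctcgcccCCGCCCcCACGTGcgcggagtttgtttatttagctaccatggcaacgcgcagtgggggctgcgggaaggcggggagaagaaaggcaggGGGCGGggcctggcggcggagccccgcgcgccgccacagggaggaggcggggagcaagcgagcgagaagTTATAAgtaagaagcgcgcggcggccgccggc
Klf6: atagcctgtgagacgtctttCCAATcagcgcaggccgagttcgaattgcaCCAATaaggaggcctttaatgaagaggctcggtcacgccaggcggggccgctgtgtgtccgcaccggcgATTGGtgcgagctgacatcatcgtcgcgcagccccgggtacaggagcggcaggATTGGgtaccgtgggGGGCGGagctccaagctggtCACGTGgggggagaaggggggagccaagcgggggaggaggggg

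All 3 windows were GC-rich, with 71.2% G or C in Klf2, 74.0% in Klf4 and 64.8% in Klf6. The Klf2 window held GGGCGG at 2 positions, TATAA at -29 to -25 before the start, and a MEF2 match, CTAAATTTAG, at -118 to -109. MEF2 factors are the known link between the ERK5 kinase and Klf2, and their own levels are given further on. The Klf4 window held GGGCGG at 4 positions, 2 of them overlapping by a base, as well as CACGTG at -182 to -177 and TATAA at -31 to -27. The Klf6 window held 4 CCAAT matches, 1 GGGCGG and CACGTG at -43 to -38, and no TATAA. Of the 8 genes, 7 had an entry in the RefSeq promoter table. GGGCGG occurred in 6 of these 7 windows against 33% of all 32536 promoters, and CACCC in 5 of 7 against 52.1%. CCAAT was found in 3 of 7 (33.8% of all promoters), TATAA in 2 of 7 (22.7%), CACGTG in Klf4 and Klf6 only (6.04%) and the MEF2 motif in Klf2 only (2.89%). TGACGTCA, the cyclic AMP response element, and the CArG box of serum response factor were in none of the 7 windows, against 1.56% and 1.48% of all promoters. These are matches of letters in a short window and not shown to be bound sites.

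Total counts per library ran from 41566151 to 60289310, and the detection floor of 3 counts equals 0.0498 to 0.0722 CPM, for counting error only. Levels are CPM (counts scaled to the library total), corrected with TMM factors, and log2 fold changes are day 3 minus day 1 with their standard error. Macrophage markers were abundant on both days: the summed level of 10 macrophage genes was 17943 ± 1528 CPM at day 1 and 31357 ± 2789 at day 3 (SD, n = 3 and 5; exact permutation test, two-sided, p = 0.0357, the smallest that 56 splits allow, 0.0893 adjusted over 10 lists). Lyz2 made up most of that difference, with 6687 to 9864 CPM at day 1 and 15641 to 23420 at day 3. Fcgr1 went the other way (715 to 975 and 343 to 487). Cd68, Csf1r, Mertk, C1qa and Itgam overlapped between the days, and Adgre1, C1qb and C1qc were higher at day 3 without overlap. The sum of 6 monocyte genes was 7712 ± 690 CPM and 5026 ± 558 (exact permutation p = 0.0357, adjusted 0.0893), so both sums differed without overlap and neither passed after adjustment. Most of the monocyte difference lay in Thbs1 (3357 to 4303 CPM at day 1, 1452 to 2646 at day 3), and Ccr2 and F13a1 overlapped between the days. Fewer cells of a type and less RNA per cell cannot be told apart in such bulk samples. Genes with any count numbered 23928 to 27315 per library at day 1, 20557 in day 3 a and 14952 to 15359 in the other 4 day 3 libraries. One library, day 1 c, stood apart: 48 of 6662 genes with a mean of at least 10 CPM (0.721%) were at least 5 times above every other library there, against 1 gene in day 1 b and 0 in each of the rest. Values of the members and the list medians are given with and without day 1 c where it moved them.

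Across the whole transcriptome the days were separated weakly by the edgeR quasi-likelihood F test, with 2 of 15371 genes called at an adjusted p under 0.05 (0.013%) and 2414 (15.7%) at an unadjusted p under 0.05. None of the 8 Kruppel-like factor genes was among the 2. With a stricter filter on low counts, which left 8138 genes, Klf4 and Klf6 were called higher, against 0.786% of all genes, and no member was called lower, against 1.02%. DESeq2 and limma voom also called Klf4 and Klf6 and no other member, against 2.64% and 0.963% of genes called higher. Halved counts called Klf4 alone, against 0.166% of genes called higher, and no member was called with the GC offset or in any of the 8 fits that left out 1 library. With no filter, edgeR called Klf4 and Klf6 higher and Klf2 lower, against 0.545% and 2.95% of 38518 genes. Because the genes were chosen on this contrast, nothing is read from these shares. All 8 genes passed the default filter, and their median log2 fold change was -0.067, beside a median of -0.17 over all genes tested with every library. Without day 1 c the median of the 8 genes was 0.25, and the median over all genes was not computed for that setting.

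**Figure D1:**
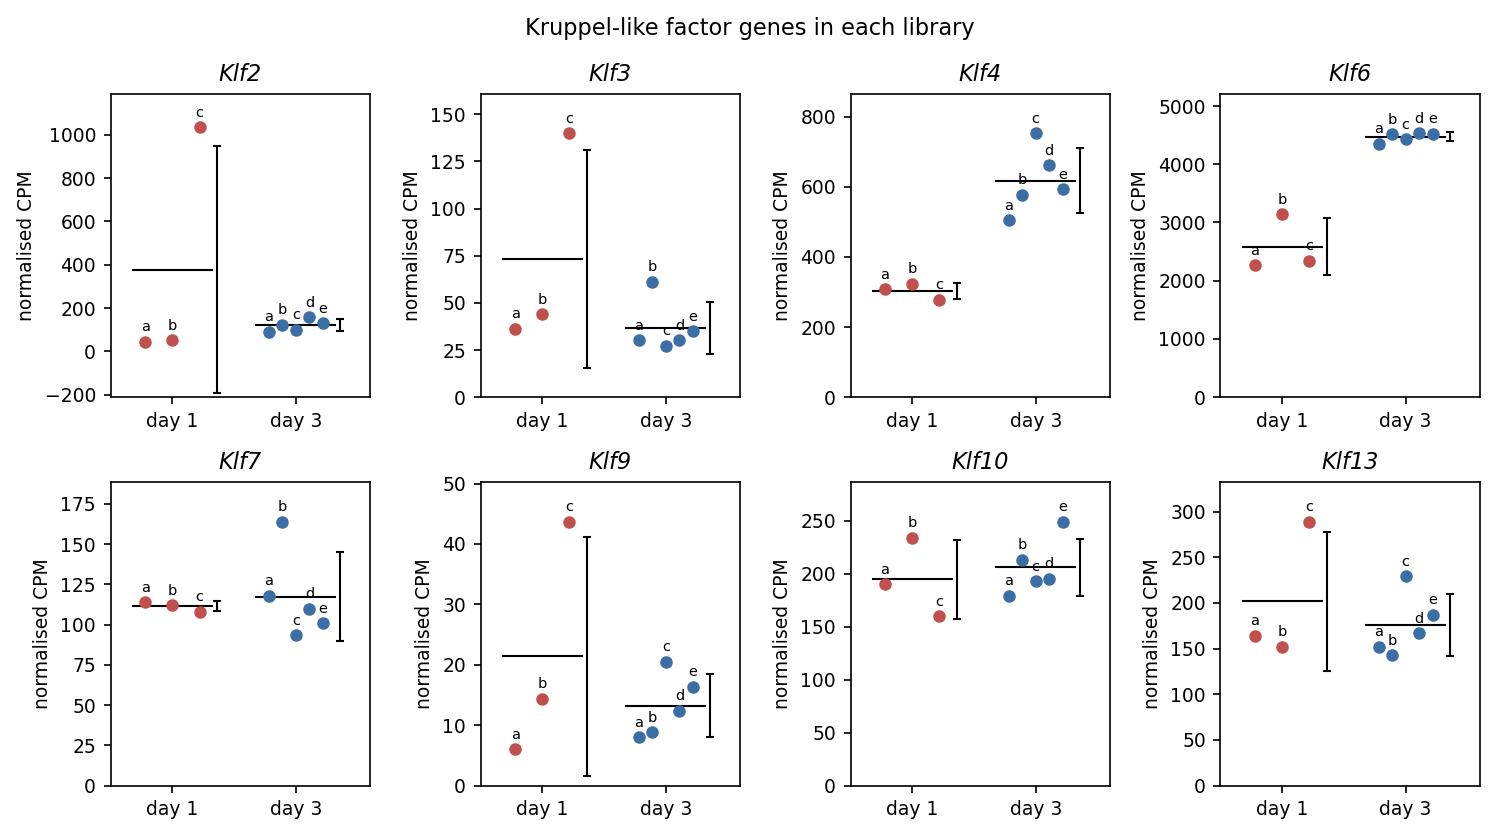
Normalised CPM of each Kruppel-like factor gene (vertical axes, linear, a scale of its own per gene) in the 3 day 1 libraries (red) and the 5 day 3 libraries (blue), with library letters, the mean of each day as a line and its SD as a bar. Klf4 and Klf6 do not overlap between the days, and Klf2, Klf3, Klf9 and Klf13 have their highest point in day 1 c.

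Klf4 (ENSMUSG00000003032, chromosome 4, 55527143 to 55532466, - strand, GRCm39) stood at 308, 324 and 278 CPM in day 1 a to c and at 505, 577, 753, 661 and 593 CPM in day 3 a to e. The lowest day 3 library lay well above the highest day 1 library, and day 1 c was not set apart from its 2 companions for this gene. The mean was 303 ± 23.2 CPM at day 1 and 618 ± 93.8 at day 3 (SD over 3 and 5 libraries), and the log2 fold change was 1.02 ± 0.17, or 0.96 ± 0.17 without day 1 c. Leaving out any 1 library kept the estimate between 0.946 and 1.09. An offset for transcript GC content gave 1.22.

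Klf6 (ENSMUSG00000000078, chromosome 13, 5911481 to 5920393, + strand) was the most abundant of the 8, with 2265, 3146 and 2347 CPM in day 1 a to c and 4354, 4520, 4432, 4535 and 4523 CPM in day 3 a to e. Its 5 day 3 values lay close together, whereas day 1 b stood above the other day 1 libraries. The mean was 2586 ± 487 CPM at day 1 and 4473 ± 78.2 at day 3, a log2 fold change of 0.79 ± 0.16, or 0.72 ± 0.15 without day 1 c. The estimate ranged from 0.681 without day 1 a to 0.958 without day 1 b. Of the 15371 genes tested, 822 (5.35%) had all day 3 values above all day 1 values and 1342 (8.73%) had all below. Among the 8 members these were 2 and 0. The 2 were Klf4 and Klf6, whose higher level at day 3 was known when the family was selected, so nothing is read from this count.

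Klf2 (ENSMUSG00000055148, chromosome 8, 73072877 to 73075500, + strand), a regulator of endothelial and lymphocyte quiescence as well as of myeloid activation, changed direction with a single library. Its level was 44.8, 53.1 and 1035 CPM in day 1 a to c, from raw counts of 1786, 3193 and 56958. At day 3 it was 91.3, 124, 100, 159 and 130 CPM. Day 1 a and b were thus below every day 3 library, and day 1 c was 6.5 times above the highest of the other 7 libraries and 21.2 times above the mean of day 1 a and b. The mean was 378 ± 569 CPM at day 1 and 121 ± 26.8 at day 3, with a log2 fold change of -1.64 ± 0.85. Without day 1 c it was 1.30 ± 0.24, larger than the estimate for Klf4, on 2 day 1 libraries. DESeq2 gave no adjusted p for Klf2, since it marked a count as an outlier.

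**Figure D2:**
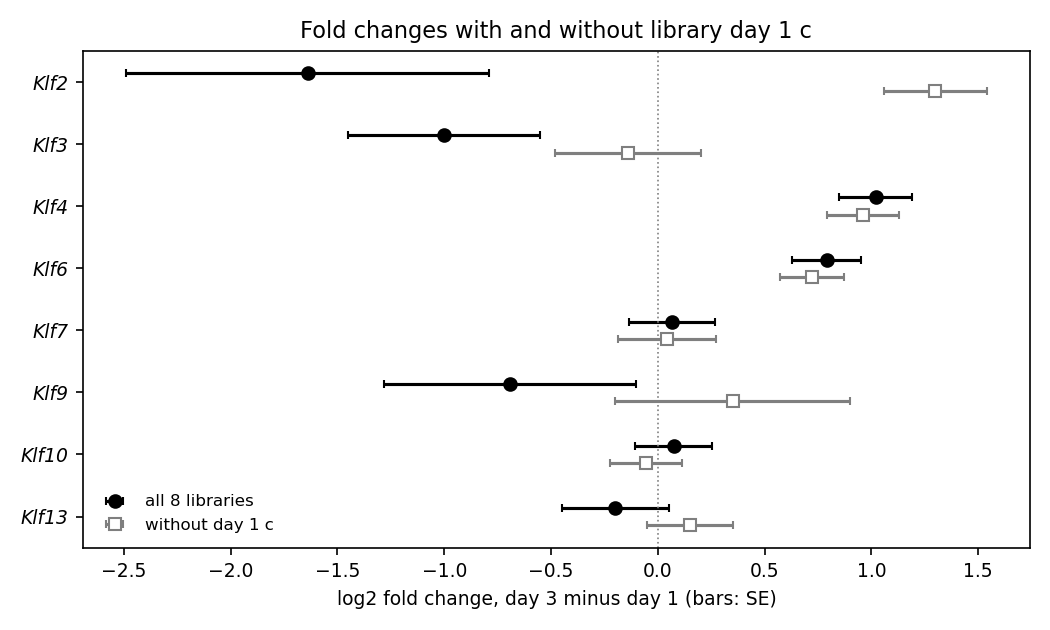
Log2 fold change (horizontal axis, day 3 minus day 1, bars are standard errors) of the 8 genes in all 8 libraries (filled circles) and without day 1 c (open squares). Klf4, Klf6 and Klf7 hardly move, while Klf2 goes from -1.64 to 1.30 and Klf9 from -0.69 to 0.35.

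Klf3, Klf9 and Klf13 were also highest in day 1 c. Klf3 (ENSMUSG00000029178, chromosome 5, 64960731 to 64990244, + strand), a repressor that acts through CtBP, was at 36.2, 44 and 140 CPM at day 1 and 30.1, 61.2, 27.2, 30.2 and 34.9 CPM at day 3. In 4 of 5 day 3 libraries it lay below every day 1 library, and day 3 b lay between day 1 b and c. The log2 fold change was -1.0 ± 0.45, or -0.14 ± 0.34 without day 1 c. Klf3 shares 404 exon bases with Gm20033 on the opposite strand, and the recorded counting command holds no strand option, so reads there cannot be told apart.

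Klf9 (ENSMUSG00000033863, chromosome 19, 23118590 to 23145498, + strand), a target of glucocorticoid and thyroid hormone receptors, was the scarcest of the 8, at 6.06, 14.4 and 43.7 CPM at day 1 and 8.04, 8.86, 20.5, 12.4 and 16.4 CPM at day 3. The days overlapped, and the log2 fold change of -0.69 ± 0.59 became 0.35 ± 0.55 without day 1 c, in both cases close to its error. Klf13 (ENSMUSG00000052040, chromosome 7, 63536099 to 63588663, - strand), known as a late activator of Ccl5 in lymphocytes, was at 164, 152 and 289 CPM at day 1 and 152, 143, 229, 167 and 187 CPM at day 3. Its log2 fold change was -0.20 ± 0.25, or 0.15 ± 0.20 without day 1 c and 0.092 with the GC offset, and the ranges overlapped.

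Klf7 and Klf10 differed between the days by less than their standard errors. Klf7 (ENSMUSG00000025959, chromosome 1, 64068606 to 64161441, - strand), best known from neurons and fat tissue, had 114, 112 and 108 CPM at day 1 and 118, 164, 93.5, 110 and 101 CPM at day 3. The narrow day 1 values lay inside the day 3 range, with a log2 fold change of 0.067 ± 0.20. Klf10 (ENSMUSG00000037465, chromosome 15, 38291707 to 38300950, - strand), an early response gene of TGF-beta, was at 190, 234 and 160 CPM at day 1 and 179, 213, 193, 195 and 249 CPM at day 3. The log2 fold change was 0.074 ± 0.18, or -0.055 ± 0.17 without day 1 c. With 3 and 5 pools, differences larger than these errors could also have gone uncalled.

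The pattern of day 1 c across the family followed gene by gene rather than the family as a whole. As a log2 ratio over the mean of day 1 a and b, it was 4.39 for Klf2, 2.16 for Klf9, 1.80 for Klf3 and 0.87 for Klf13, against -0.066 for Klf7, -0.18 for Klf4, -0.19 for Klf6 and -0.40 for Klf10. Levels in this library moved with GC content: with genes split into 10 equal groups by the GC content of their longest transcript, the median deviation of day 1 c went from -0.40 in the lowest group to 0.64 in the highest. Klf2, at 61.6% G or C, is among the 104 genes at 60% or more, whose median log2 ratio was 0.98, with 83 above 0, and it ranked 4 among them. Klf3 (45.7%) and Klf9 (47.5%) were of middling GC content, and Klf4 (54.6%) and Klf13 (55.5%) lay close together in GC content but apart in the ratio. An offset that removed the GC trend from each library, chosen after the data had been seen, left Klf2 at a log2 fold change of -0.73. For Klf2 it took 0.929 log2 units from day 1 c, beside the log2 ratio of 4.39, and -0.0425 and 0.00505 from day 1 a and b. The neutrophil marker sum was also highest in day 1 c, at 3876 CPM, against 822 and 2213 in day 1 a and b. It was 3670 CPM in day 3 b, where Klf2 was at 124, Klf9 at 8.86 and Klf13 at 143 CPM, inside or at the low end of their day 3 range. Klf3, at 61.2 CPM in day 3 b, had its highest day 3 value there. The part of GC content or of neutrophil RNA in these values was not tested.

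**Figure D3:**
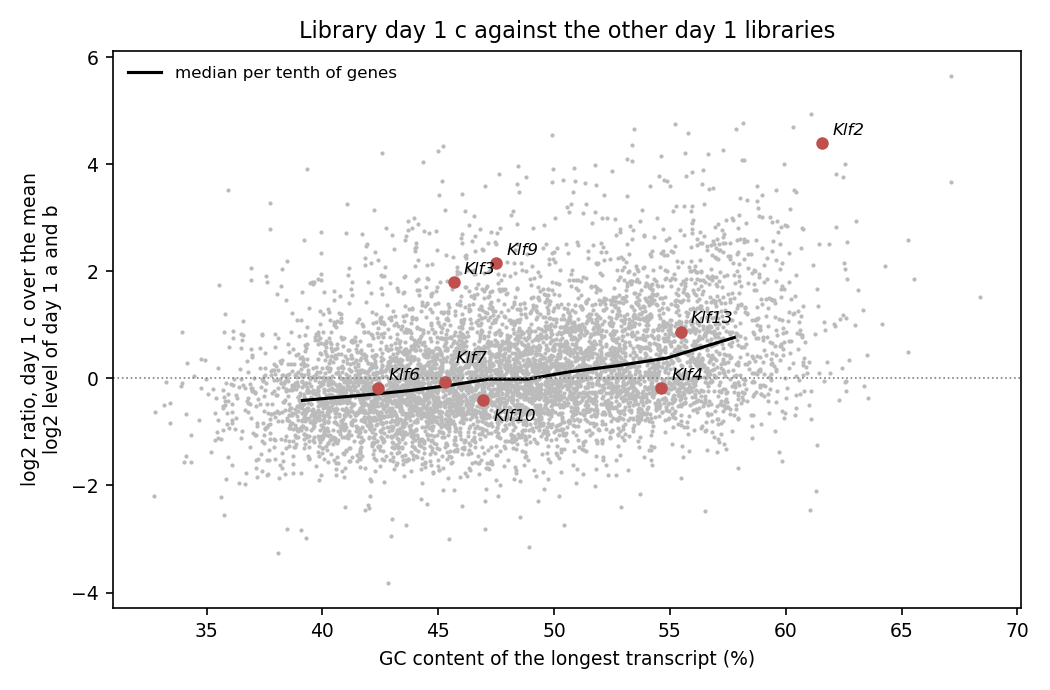
Log2 ratio of day 1 c over the mean log2 level of day 1 a and b (vertical axis) against the GC content of the longest transcript in percent (horizontal axis), 1 point per gene with a mean of at least 10 CPM, the 8 members in red and the median in each of 10 equal groups of genes as a line. Klf2 lies far above the line at 61.6% G or C, Klf3 and Klf9 lie above it at middling GC content, and Klf4, Klf6, Klf7 and Klf10 lie near or below it.

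Levels of different genes were compared per kilobase of annotated exon, a length that joins all isoforms and so understates genes with long rare exons. At day 3 the order was Klf6 at 1019 ± 17.8 CPM per kb, Klf4 at 203 ± 30.8, Klf2 at 65.5 ± 14.5, Klf10 at 49.2 ± 6.46, Klf13 at 23.3 ± 4.55, Klf7 at 14.4 ± 3.39, Klf3 at 3.27 ± 1.24 and Klf9 at 2.75 ± 1.09. Neighbours in this order overlapped across libraries for Klf2 with Klf10, Klf13 with Klf7, and Klf3 with Klf9, and the others did not. At day 1 Klf6 was at 589 ± 111 CPM per kb, Klf4 at 99.5 ± 7.6, Klf10 at 46.6 ± 8.87, Klf13 at 26.8 ± 10.1, Klf7 at 13.7 ± 0.381, Klf3 at 6.53 ± 5.15 and Klf9 at 4.44 ± 4.1. Klf2 was at 24.2 and 28.7 CPM per kb in day 1 a and b, near Klf13, and at 560 in day 1 c, above the 535 of Klf6 in that library. The 8 genes summed to 727, 948 and 1298 CPM per kb at day 1 and to between 1288 and 1424 at day 3. Klf6 supplied 71%, 75.6% and 41.2% of that sum in day 1 a to c and 71.8% to 77% at day 3. The ratio of Klf6 to Klf4 was 5.9 ± 0.823 at day 1 and 5.11 ± 0.721 at day 3, with overlapping values (5.1 to 6.75 and 4.09 to 5.99).

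**Figure D4:**
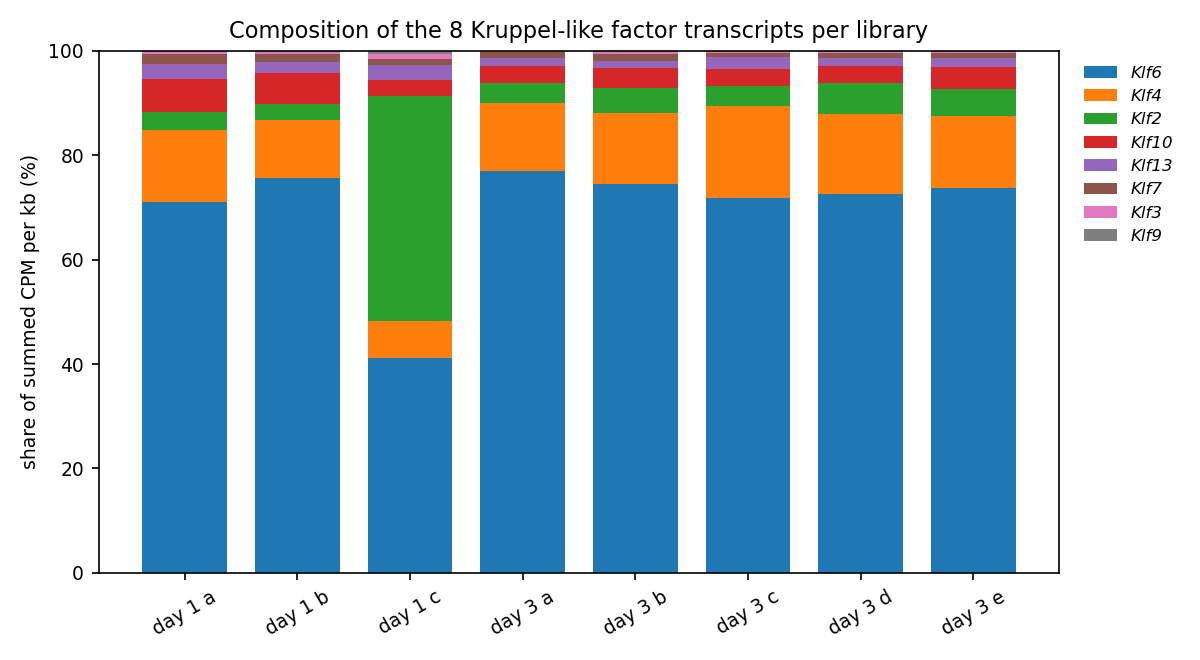
Share of each Kruppel-like factor gene in the summed CPM per kb of the 8 genes (vertical axis, percent) in each library (horizontal axis). Klf6 takes 71% or more in every library but day 1 c, where it takes 41.2% and Klf2 43.2%.

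By Pearson correlation of log2 CPM over the 8 libraries, among 3819 genes, Mef2c came first for Klf4 (r = 0.982), followed by Ube2w (0.976), Hsd17b10 (0.975), Galnt7 (0.972) and Tmem176a (0.97). For Klf6 the closest were S100a1 (r = 0.991), Map3k8 (0.988), Fam213b (0.986), Mmp12 (0.985) and Emp3 (0.984). Klf4 and Klf6 correlated at 0.926, which placed Klf6 at rank 26 for Klf4 and Klf4 at rank 81 for Klf6. These values describe 8 libraries that fall into 2 days, so any gene that separates the days scores high. Klf2 was at -0.155 with Klf4 and -0.177 with Klf6.

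Of the other 9 Kruppel-like factor genes, 4 had enough counts to be tested and none was called (edgeR, with 0 at an unadjusted p under 0.05, and 0 by DESeq2 and voom). Over all genes edgeR called 0.013%, with 15.7% at an unadjusted p under 0.05. DESeq2 called 1041 and voom 825 of the 15371 genes fitted. With 4 genes, 0 calls beside these shares says little about the relatives. Klf11, a relative of Klf10 that recruits Sin3A, was the one at a level near the members, at 45.6 ± 6.43 CPM at day 1 and 31.9 ± 8.81 at day 3, which differed by -0.52 ± 0.27 on the log2 scale (edgeR adjusted p = 0.403). Klf16 went from 5.2 ± 3.04 to 2.77 ± 0.891 CPM (-0.91 ± 0.74, edgeR adjusted p = 0.628). Klf5 and Klf8 had means of 0.537 to 2.14 CPM on either day, and Klf1, Klf12, Klf14, Klf15 and Klf17, with means of 0.506 CPM or less, were not tested. The related Sp factors, which bind the same GC boxes, had 4 of 9 genes tested and none called by any of the 3 tools, beside the same shares over all genes. Sp2 shares 126 and Sp3 109 exon bases with a gene on the opposite strand. Sp3 was the most abundant, at 85.3 ± 33.2 and 84.1 ± 14.1 CPM (log2 difference -0.025 ± 0.26, edgeR adjusted p = 0.979), and Sp1 had 0.1 CPM in day 1 a against at least 11.4 in every other library. Sp4 was low and uneven, at 0.401, 0.0333 and 4.65 CPM at day 1 and 1.55 to 26.2 at day 3 (2.64 ± 1.41, edgeR adjusted p = 0.416, or 5.62 ± 1.55 without day 1 c), and day 1 b held only 2 counts of it. Sp2 was at 8.92 ± 10.3 and 5.06 ± 3.72 CPM (-0.82 ± 0.90, edgeR adjusted p = 0.737), or 0.73 without day 1 c. The median log2 fold change was 0.12 over the 4 other Kruppel-like genes tested and 0.72 over the 4 Sp genes, or 0.75 and 1.41 without day 1 c, beside -0.17 over all genes with every library.

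Of 11 tested genes of the MEF2, ERK5 and ubiquitin ligase list, 3 had an unadjusted p under 0.05, against 15.7% of all genes, and none was called by the default edgeR fit. The median log2 fold change was -0.13, or -0.08 without day 1 c. The stricter filter called 1 of them higher and 1 lower, against 0.786% and 1.02% of all genes. Mef2c, a transcription factor that drives Klf2 downstream of ERK5, was at 47.1, 52.1 and 50.3 CPM at day 1 and at 100, 96.3, 160, 147 and 124 CPM at day 3. Its log2 fold change was 1.33 ± 0.22 (edgeR adjusted p = 0.0603), and with the stricter filter it was called higher (1.36, adjusted p = 0.0259). Mapk7, which encodes ERK5, was at 24.4 ± 7.32 CPM at day 1 and 3.12 ± 1.83 at day 3 (-2.97 ± 0.52, edgeR adjusted p = 0.063), and was called lower with the stricter filter (adjusted p = 0.0307). Mapk7 shares 89 exon bases with Mfap4 on the opposite strand. On the opposite strand too, Mef2d shares 531 with 1700113A16Rik, Mef2a 302 with Lysmd4 and Wwp1 46 with Gm12353. Mef2d, at 40.1 ± 17.4 and 11.3 ± 5.49 CPM (-1.83 ± 0.52, edgeR adjusted p = 0.114), was not called. Mef2a and Wwp1, a ubiquitin ligase reported to act on Klf2, were the most abundant of the list and were not called (edgeR adjusted p = 0.493 and 0.534).

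Among 13 cofactors through which the family represses or activates, 3 had an unadjusted p under 0.05, against 15.7% of all genes, and none was called. Their median log2 fold change was -0.51, or -0.29 without day 1 c, beside -0.17 over all genes with every library. Hdac1, a histone deacetylase of the Sin3 complex, was at 109 ± 19.4 CPM at day 1 and 54.4 ± 13.2 at day 3 (-1.01 ± 0.24, edgeR adjusted p = 0.0829). Ctbp1, the partner of Klf3, differed by -1.56 ± 0.64 on the log2 scale (edgeR adjusted p = 0.268), or -0.15 without day 1 c. Sap30, a subunit of the Sin3 complex, was at 67.8 ± 8.21 and 43.6 ± 14.1 CPM (-0.64 ± 0.27, edgeR adjusted p = 0.296). Of 20 genes linked to Kruppel-like factors in macrophages or endothelium, 5 had an unadjusted p under 0.05, against 15.7% of all genes, and the stricter filter called 1, lower, against 1.02%. The 20 genes had a median difference of -0.34 on the log2 scale, or -0.22 without day 1 c. The called gene was Retnla, a marker of alternative activation that Klf4 is reported to promote, at 179 ± 103 CPM at day 1 and 22.8 ± 3.64 at day 3 (-2.97 ± 0.38, edgeR adjusted p = 0.0579, 0.0202 with the stricter filter). Ccl2, a monocyte chemokine, was at 4383 ± 1042 and 2107 ± 585 CPM (-1.06 ± 0.24, edgeR adjusted p = 0.0829), and Cd14 at 9298 ± 1527 and 9846 ± 3485 CPM (adjusted p = 0.928). Cd163, a scavenger receptor of macrophages, had a difference of -1.25 ± 0.39 (edgeR adjusted p = 0.145), or -0.55 without day 1 c.

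Lists for the signals known to induce single members gave no call by the default edgeR fit. The 12 glucocorticoid-responsive genes, set beside Klf9, had 0 with an unadjusted p under 0.05, against 15.7% of all genes. Their median log2 fold change was -0.12, or 0.14 without day 1 c. The most abundant of them, Il1r2 (473 ± 165 and 407 ± 402 CPM, edgeR adjusted p = 0.91) and Mt1 (212 ± 68.7 and 253 ± 43.6 CPM, edgeR adjusted p = 0.676), overlapped between the days. The 14 TGF-beta response genes, set beside Klf10, had 1, against the same 15.7%, and a median of -0.19, or -0.048 without day 1 c. The gene with that p was Tgfbi, at 1002 ± 791 and 384 ± 32.6 CPM (-1.39 ± 0.38, edgeR adjusted p = 0.0992), or -0.51 without day 1 c, and Id2 was at 1001 ± 230 and 918 ± 193 CPM (edgeR adjusted p = 0.842). Of the 14, 1 had all day 3 values above all day 1 values and 3 had all below, against 5.35% and 8.73% of all genes. The 21 immediate early genes are a group that also includes Klf2, Klf4, Klf6 and Klf10 in many cells. Of the 21, 6 had an unadjusted p under 0.05, against 15.7% of all genes. Their median log2 fold change was -0.18, or 0.35 without day 1 c. Dusp1, a phosphatase of MAP kinases, was at 3686 ± 1169 and 7408 ± 1571 CPM with no overlap between the days (1.00 ± 0.25, edgeR adjusted p = 0.0836). Fos was at 1626 ± 696 and 2778 ± 797 CPM (0.77 ± 0.32, edgeR adjusted p = 0.287) and Ier3 at 809 ± 552 and 356 ± 79.3 CPM (-1.19 ± 0.36, edgeR adjusted p = 0.132, or -0.47 without day 1 c). Junb followed the same order as Klf2 in day 1, at 183, 263 and 3522 CPM in day 1 a to c, against 104 to 296 at day 3 (-2.92 ± 0.85, edgeR adjusted p = 0.118, or -0.36 without day 1 c). It shares 173 exon bases with Prdx2 on the opposite strand. The sum of the immediate early genes was 7857, 11577 and 19441 CPM at day 1 and 11848 to 19953 at day 3, so the days overlapped through day 1 c alone (exact permutation p = 0.5, 0.556 adjusted). The difference in means, 2238 CPM, was 5479 without day 1 c (exact permutation p = 0.0952, the smallest that 2 against 5 libraries allow) and -313 without day 1 a (exact permutation p = 0.952). Dusp1 alone differed by more than the 2238 CPM and made up most of the 5479 CPM. Fos went the same way, while Junb and Ier3 had lower means at day 3, so the sum does not stand for the list as a whole. The part of early response to tissue digestion in the levels of Klf2, Klf4, Klf6 and Klf10 was not tested.

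Markers of endothelial cells and keratinocytes, in which Kruppel-like factors are abundant, were low. The endothelial sum of 8 genes, beside Klf2 and Klf4, was 77.7, 31.2 and 39.8 CPM at day 1 and 17.3 to 30 at day 3 (exact permutation p = 0.0357, adjusted 0.0893), higher on the day with the lower Klf4. Most of it was Pecam1 (12.7 to 30.6 CPM at day 1, 10.9 to 22 at day 3) and Kdr (45, 11.5 and 4.31 CPM in day 1 a to c, 0.0406 to 7.15 at day 3). Both genes overlapped between the days. The sum was not highest in day 1 c, the library with the high Klf2, but Pecam1 was. The keratinocyte sum of 8 genes, beside Klf4 and Klf5, was 1.49 to 5.37 CPM at day 1 and 1.89 to 57.8 at day 3 (exact permutation p = 0.357, adjusted 0.446), with 57.8 in day 3 b, whose Klf4 was second lowest of day 3. The fibroblast sum was 25.1 ± 14.9 CPM at day 1 and 95.1 ± 27.5 at day 3 (exact permutation p = 0.0357, adjusted 0.0893), in the direction of Klf4 and Klf6. The neutrophil sum was 447 to 664 CPM at day 3 save for 3670 in day 3 b, and did not separate the days (exact permutation p = 0.25, adjusted 0.357). B cell genes summed to 76.8 ± 39 and 164 ± 42.8 CPM (exact permutation p = 0.0714, adjusted 0.143), almost wholly Ighm and Cd79b. T and NK cell genes (5.2 ± 3.9 and 5.28 ± 2.85 CPM, exact permutation p = 0.964) and red cell genes (3.42 ± 1.4 and 8.11 ± 5.52 CPM, exact permutation p = 0.179, adjusted 0.298) were near 0. The part of other cell types in the values of the members was not tested.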

How the data were processed

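The authors deposited raw counts per gene, 1 column per library and not normalised. Counting used featureCounts 1.6.0 and Ensembl release 106 (GRCm39), per the file headers, and the recorded command has no option for strand, read pairs or reads with several positions. Of counts from 2 to 20, 73% to 86% were even in each library, which is why halved counts were tried. The submitters' processing notes also name Trimmomatic and DESeq2. For the aligner, no name is given in the sources used here. Column letters and the letters of the alignments in the header differ in part, so letters are only names.

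Symbols were given to 52081 of 55414 genes (94.0%). No column belonged to another sample. Genes passed filterByExpr (minimum count 10), were scaled with TMM and entered the two-sided quasi-likelihood F test of edgeR, whose p-values were adjusted by Benjamini-Hochberg over all genes tested (threshold 0.05). The tools were edgeR 4.0.16, DESeq2 1.42.0 and limma 3.58.1 in R 4.3.3, with Python 3.11.15. The fits were also run on simulated counts with fold changes larger than those of the members, which does not measure power for differences of their size. Alternatives were DESeq2, limma voom, RLE scaling, library totals, no filter, a stricter filter (a mean of 5 CPM, and 1 CPM or more throughout 1 day), halved counts, each library left out, and only letters a to c, once with the letter as a block. An offset for GC content (GENCODE M21 transcripts, GRCm38) was chosen after seeing the data.

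The members and lists were chosen with earlier results of these data known. The text names all members, tested relatives, and of each list the 2 most abundant per length and up to 3 with the smallest unadjusted p under 0.05. For Klf4 and Klf6 it names the 5 genes with the highest correlation. Lists describe counts and medians, without a set test. Promoter sequences are from RefSeq (GRCm38.p6).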

Additional observations from a re-analysis of the deposited data

Results flagged for a closer look

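Among the 26 groups of 5 day 3 values that were examined for a single distant library, 3 held one, and chance alone marks about 1 in 20 such groups. All 3 lay in day 3 b. Klf3 was at 61.2 CPM there, against 27.2 to 34.9 in the other 4 day 3 libraries. The neutrophil marker sum was 3670 CPM, against 447 to 664, and the keratinocyte marker sum was 57.8 CPM, against 1.89 to 5.76. Klf7 had its highest value, 164 CPM, in the same library.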

How the results depend on the processing

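The number of genes called between the days was 2 by edgeR and depended on the setting: 1041 by DESeq2, 825 by limma voom, 1347 with no filter, 147 with the stricter filter, 46 with halved counts, 7 with the GC offset added after the data had been seen, and 0 for libraries a to c without a block or with the letter as a replicate block, where 1660 and 1343 genes had an unadjusted p under 0.05. Leaving out single libraries gave 0 to 59. Klf4 and Klf6 stayed higher at day 3 under all 18 alternatives, from 0.946 to 1.22 and from 0.681 to 0.958. Klf2 ran from -2.23 to 1.29, Klf9 from -1.18 to 0.353 and Sp2 from -1.35 to 0.73 when single libraries were left out, each positive only without day 1 c. Klf13 turned positive without day 1 c (0.148) and with the GC offset (0.092). With the replicate block Klf2 was at -0.09. Limma voom gave -0.66 for Klf5, -0.96 for Klf8 and 0.063 for Sp3, opposite in sign to edgeR. Sp3 was also positive with the stricter filter (0.0084) and ran from -0.18 to 0.32 with libraries left out. The causes were not tested. Same-letter libraries deviated together at r = 0.0697, 0.00779 and 0.0567, and libraries of different letters at r = -0.107 to 0.0548. Values from so few libraries per day cannot show whether the letters pair the pools. With 3 and 5 pools and possible double counting of pairs, small differences in low genes such as Klf9 are the least certain.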

Other observations

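The genes that stood apart most in day 1 c were outside the Kruppel-like family. Cebpb, a transcription factor of myeloid inflammation, was at 1736 CPM there against at most 35.7 in the other 7 libraries (48.6 times). Ube2s (18.9 times), Slc16a3 (17.5), Metrnl (14.5), Junb (11.9), Pitpna (11) and Il4ra, a chain of the interleukin 4 receptor (10.9), followed Cebpb in that order. Cebpb shares 312 exon bases with Tmem189 on the opposite strand. Klf2 ranked 22 among the 48 genes at least 5 times above every other library, whose median transcript GC content was 56.7% against 48% over all 6657 genes compared. These genes were chosen after their values were seen.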
